A study of Homo sapiens with 8 samples.

Results

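HOX genes encode homeodomain transcription factors that give cells their position along the body axis. In mammals they lie in 4 clusters, HOXA, HOXB, HOXC and HOXD, and the order of the genes along a cluster follows the order in which they are used from head to tail. Genes at matching positions in different clusters descend from a common ancestor and form paralog groups, numbered from 1 at the anterior end to 13 at the posterior end. Polycomb proteins keep HOX genes silent where they are not used and MLL proteins keep them active, and many long non-coding RNA (lncRNA) and microRNA (miRNA) genes lie between and across the coding genes. The 39 protein-coding genes named HOXA, HOXB, HOXC or HOXD with a number were taken from a RefSeq table of 19974 protein-coding genes on chromosomes 1 to 22 and X. They were 11 HOXA, 10 HOXB, 9 HOXC and 9 HOXD genes. A readthrough gene that joins HOXA10 and HOXA9 has a compound name and was not counted.

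The data were KAS-seq profiles of HEK293T cells, an established human line from embryonic kidney. The method labels unpaired guanines with N3-kethoxal in living cells, so that melted DNA, as in a transcription bubble, is recovered and sequenced. The vitamin C group had been given 0.5 mM vitamin C for 10 min in complete medium and the control group had not, and cells of both groups were labelled for 10 min in 5 mM N3-kethoxal. Each group had 2 labelled libraries, and each library had its own peak list on hg38.

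The vitamin C lists held 9816 and 9896 peaks on the chromosomes used, against 30351 and 24111 in the control lists. The background solved from the authors' peak values was 1.22 and 0.871 labelled fragments per position in the vitamin C libraries and 0.817 and 0.849 in the control libraries, so the shorter lists did not come with a lower background. Fragment numbers at summits are given below as solved, with no scaling between libraries. Of 12 markers of embryonic kidney and epithelium, 3 kidney genes and no epithelial gene had a peak in any library. Of 17 markers of blood, liver, muscle, neural, endothelial and fibroblast cells, 3 had one. Of all 19974 protein-coding genes, 10488 had no peak in any library, so both marker sets had a peak less often than genes in general. The marker peaks record opened DNA and not RNA, so they are a weak check of the cell label. The labels do not say that the replicates were separate cultures, and with 2 libraries against 2 the exact permutation test cannot give a p below 0.333.

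For the HOX genes with a start window, the sequences before the start show where peaks reached it. RefSeq start windows of GRCh38.p14, each 250 bases before to 50 after a start, were found for 20 of the 39 genes and gave 26 distinct windows. A peak lay on 2 and 4 of them in the vitamin C libraries and on 5 in each control library. Over all protein-coding start windows the shares were 4.24% and 4.17% with vitamin C and 9.74% and 8.26% in control. In 19 of the 26 windows no library had a peak. The windows of HOXA9 and HOXA10, both posterior genes used in blood and reproductive tract, were met in all 4 libraries, as were 3% of all windows. The window of HOXA11, a gene of kidney and limb, lay inside a peak over all 250 upstream bases in both control libraries and held no peak base with vitamin C. The window of HOXA2, a hindbrain gene, held 0 and 130 bases in a peak in the vitamin C libraries and 175 and 250 in the control libraries. HOXB1 was the only HOXB gene with a window, and HOXA5 had none, so peaks at the starts of genes without a window were not counted. The 250 upstream bases of these 4 starts are printed 5′ to 3′ because, among the 26 windows, they are those met in at least 2 libraries. They lie at chr7:27165538-27165787 for HOXA9, chr7:27179862-27180111 for HOXA10, chr7:27185233-27185482 for HOXA11 and chr7:27102684-27102933 for HOXA2, all on the minus strand. Capitals mark bases inside a peak in all 4 libraries, which are 61 in HOXA9 and 31 in HOXA10.
HOXA9: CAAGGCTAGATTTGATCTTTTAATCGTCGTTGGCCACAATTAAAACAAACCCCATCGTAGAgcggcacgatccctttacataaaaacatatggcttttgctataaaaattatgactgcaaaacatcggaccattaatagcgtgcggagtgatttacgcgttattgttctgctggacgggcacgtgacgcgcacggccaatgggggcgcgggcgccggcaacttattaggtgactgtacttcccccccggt
HOXA10: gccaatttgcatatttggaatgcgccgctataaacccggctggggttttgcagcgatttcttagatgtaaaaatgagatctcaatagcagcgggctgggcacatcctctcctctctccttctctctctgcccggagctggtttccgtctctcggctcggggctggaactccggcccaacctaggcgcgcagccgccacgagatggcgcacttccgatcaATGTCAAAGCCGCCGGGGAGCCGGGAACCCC
HOXA11: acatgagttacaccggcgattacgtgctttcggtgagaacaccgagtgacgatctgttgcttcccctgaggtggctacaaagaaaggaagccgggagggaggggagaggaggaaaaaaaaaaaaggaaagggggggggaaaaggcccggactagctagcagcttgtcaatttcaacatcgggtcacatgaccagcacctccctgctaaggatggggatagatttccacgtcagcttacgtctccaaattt
HOXA2: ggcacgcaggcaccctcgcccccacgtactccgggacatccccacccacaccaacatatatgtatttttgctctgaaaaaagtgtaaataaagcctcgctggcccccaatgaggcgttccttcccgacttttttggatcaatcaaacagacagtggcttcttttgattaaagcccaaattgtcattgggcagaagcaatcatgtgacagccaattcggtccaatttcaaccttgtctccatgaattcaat

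In HOXA9 the capitals are at the far end from the start, and in HOXA10 they are at the end next to it. These 250 bases hold 61 guanines in HOXA9, 68 in HOXA10, 76 in HOXA11 and 45 in HOXA2 on the printed strand, the base that the label reacts with. The GC content was 48.8% in HOXA9, 58.8% in HOXA10, 51.6% in HOXA11 and 47.2% in HOXA2, against a median of 62% over all windows. The letters TATAAA, the core of the TATA box, were searched on both strands and occurred in 5 of 27 HOX windows, HOXA9 and HOXA10 among them, and in 9.0% of all 22132 windows. TGATTNAT, bound by PBX and HOX proteins together, occurred in 2 of 27 HOX windows, those of HOXA2 and HOXD11, and in 1.82% of all. TAATTA, a general homeodomain pattern, occurred in 2 of 27 and in 3.16% of all. None of the 3 patterns contains another. A match is a description of the letters and not a binding site.

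A larger share of HOX genes than of all genes in their length range had a peak in every library, and fewer HOX genes had one with vitamin C than in control. A gene counted where a peak met it or the 1 kb on either side. With vitamin C 23 and 24 of 39 HOX genes had a peak, against 31 and 28 in control. The vitamin C mean was 23.5 ± 0.707 genes and the control mean 29.5 ± 2.12 (SD, n = 2 each), a difference of -6 genes with an exact two-sided permutation p of 0.333. Over all protein-coding genes 23% and 23% had a peak with vitamin C and 43.2% and 39% in control. Over the 12214 genes between the shortest and longest HOX gene (1677 to 45574 bp) the shares were 24.9% and 24.3% with vitamin C and 44% and 39.7% in control. The groups of libraries did not overlap for HOX genes or for either background.

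**Figure D1:**
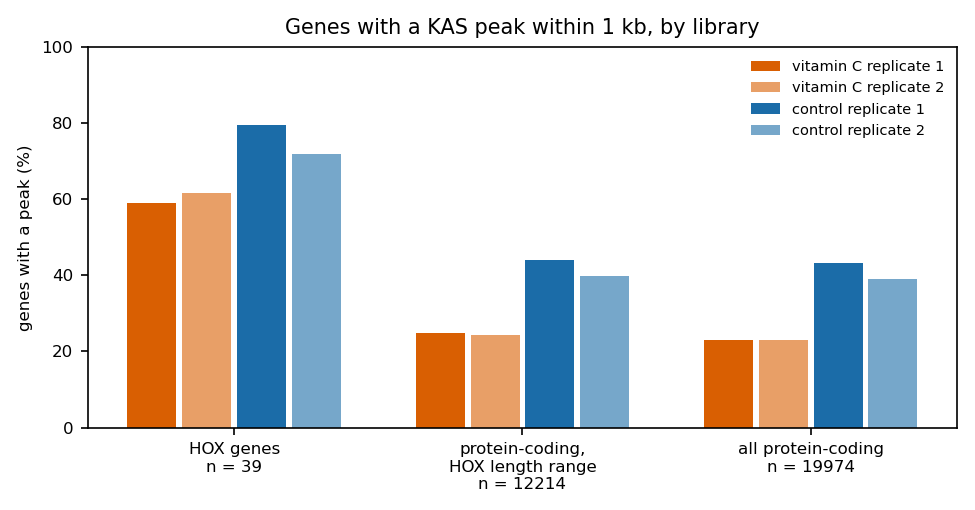
Percentage of genes with a KAS peak within 1 kb (vertical axis) in each library, for the 39 HOX genes, the 12214 protein-coding genes in their length range and all 19974 protein-coding genes; each bar is 1 library. HOX bars are the highest in every library, and in each set both vitamin C bars are below both control bars.

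The HOX genes shared peaks, so they are not independent of each other. The number of different HOX peaks was 56 in each vitamin C library, against 109 and 101 in control. Of these, 9 and 9 with vitamin C and 17 and 22 in control met more than 1 HOX gene. The difference of -49 peaks had an exact permutation p of 0.333. Peaks covered 24704 and 21484 bp of the 329105 bp of widened HOX genes with vitamin C and 65609 and 55921 bp in control, a log2 ratio of -1.40 with the same p. In all, 11 such values were tested, and the smallest p adjusted over them was 0.458 (Benjamini-Hochberg).

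Both differences in number were small in lists of equal length. Such a cut evens out peak numbers by its construction, so it cannot show why the numbers differed. Where each list was shortened to its 9816 peaks of lowest q, 23 and 24 HOX genes had a peak with vitamin C, against 26 and 22 in control. The number of different HOX peaks then differed by 3.5 in the other direction, with 56 and 56 with vitamin C against 58 and 47 in control. The covered length was lower, at 24704 and 21484 bp with vitamin C against 44435 and 28719 bp in control. That is a log2 ratio of -0.66 (exact permutation p = 0.333). The cut kept almost all vitamin C peaks but only the control peaks of lowest q, so the peaks compared were not selected alike. The part of this selection in the covered length was not tested. HOX peaks made up 0.570% and 0.566% of the peaks of the vitamin C lists, against 0.359% and 0.419% of the control lists.

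Most HOX genes met in both controls were also met in each vitamin C library. Of 27 such HOX genes 22 were met in all 4 libraries, which is 81.5%, against 49.7% of such genes overall and 53.4% in the HOX length range. Another 3, HOXA7, HOXA11 and HOXC8, were control-only, meaning that no vitamin C library met them. That is 11.1% of the 27, against 26.8% over all genes and 24.6% in the length range. The opposite pattern, peaks with vitamin C in each replicate and none in control, was found at 0 HOX genes and 0.025% of all genes. The HOX genes with a peak in both controls also had stronger control peaks. Their median control strength, the percentile of a gene's highest fold within its list averaged over both controls, was 91.6, against 74.0 for all such genes and 77.9 in the length range. The part of peak strength in the retention was not tested. Without control replicate 2 the control-only HOX genes numbered 6. In lists of equal length 21 of 22 HOX genes with a peak in both controls were met in all 4 libraries, against 76% over all genes, and 0 were control-only, against 7.42% over all genes.

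Of the 22 HOX genes met in all 4 libraries, each was covered less in both vitamin C libraries than in both control libraries. The same held for 88.4% of all genes met in all 4 libraries and 88.3% of those in the length range. Coverage with vitamin C was 39.5% of that in control at the median of the 22 HOX genes, against 41.6% over all 3503 such genes. It lay between 14.9% in HOXB2 and 64.4% in HOXB7. Coverage here is the percentage of the gene with 1 kb on each side that lay inside peaks.

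**Figure D2:**
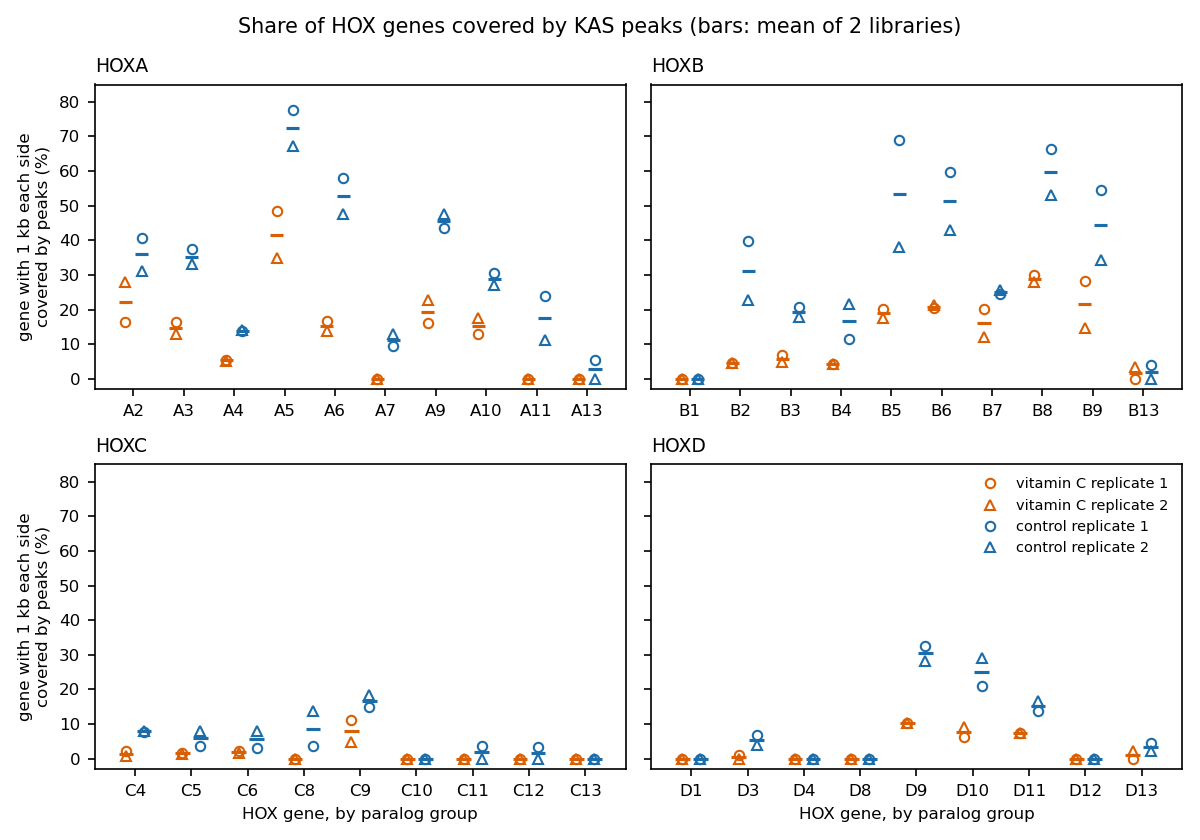
Percentage of HOX genes, with 1 kb on each side, that lay inside KAS peaks (vertical axis), by paralog group within each cluster; circles and triangles are replicates 1 and 2, short bars are means of 2 libraries. Vitamin C points lie below control points at every gene met in all 4 libraries, and HOXA5 is the most covered HOX gene in both groups, at 48.4% and 34.8% with vitamin C and 77.7% and 67.1% in control.

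The HOXA cluster had the highest density of peaks together with HOXB1 to HOXB9. It spans chr7:27091993-27201091 with 1 kb on each side. It held 27 and 26 peaks with vitamin C and 44 and 46 in control, over 11.7% and 10.6% of its 109.1 kb with vitamin C and 29.0% and 25.3% in control. A peak lay at 7 of its 11 genes in each vitamin C library and at 10 in each control library. The groups did not overlap in any of these counts, and the exact permutation p was 0.333 for the genes.

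Among the anterior HOXA genes, HOXA3 had the highest mean number of peaks of all HOX genes in both groups, while HOXB3 had 20 against its 19 in control replicate 1. HOXA2 was covered over 16.4% and 28.1% with vitamin C and over 40.7% and 31.2% in control. HOXA3, needed for thymus and parathyroid, is 45574 bp long in this table and reaches across HOXA4, HOXA5 and HOXA6. It had 16 and 14 peaks with vitamin C and 19 and 27 in control, and its coverage was 16.5% and 12.9% with vitamin C and 37.4% and 33.0% in control.

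The central HOXA genes held the most covered HOX gene, HOXA5, known for its role in the lung. Its coverage was 48.4% and 34.8% with vitamin C and 77.7% and 67.1% in control. A peak inside it, at chr7:27142481-27143076 in control replicate 1, was found in all 4 libraries, with 44 and 20 fragments at the summit with vitamin C and 35 and 27 in control. The unscaled fragment numbers of the groups overlapped, with the highest in vitamin C replicate 1, which also had the highest background. HOXA6 was covered over 16.6% and 13.7% with vitamin C and over 58.1% and 47.6% in control. HOXA4 was covered over 5.55% and 5.17% with vitamin C and over 13.9% and 14.0% in control. Both genes were low in both vitamin C libraries, and the vitamin C mean of HOXA6 was 28.7% of its control mean.

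HOXA7 was 1 of the 3 control-only genes, with coverage of 0% in both vitamin C libraries and of 9.35% and 12.9% in control. Its strongest control peak, chr7:27151314-27152846 with 37 fragments in control replicate 1, was overlapped by peaks of both vitamin C libraries that ended outside the widened gene. The other control peak, chr7:27153744-27154076 in control replicate 1, held 16 fragments there and 13 in control replicate 2, and no vitamin C peak met it. The call at HOXA7 rested on this weaker peak.

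The posterior HOXA genes 9 and 10 held strong peaks in every library. HOXA9, a gene of blood progenitors that is often active in leukaemia, was covered over 16.1% and 22.7% with vitamin C and over 43.5% and 47.5% in control. The peak across the far end of its start window had its summit between 27165850 and 27165921 in all 4 libraries. It held 51 and 37 fragments with vitamin C and 39 and 42 in control, so the groups overlapped in unscaled fragment number. Vitamin C replicate 1, with the 51 fragments, had the highest background of the 4 libraries. By fold the peak ranked above 70.7% and 92.0% of the peaks of the vitamin C lists. In the control lists it ranked above 96.5% and 98.7%, so the groups did not overlap in rank. A rank within a list depends on the other peaks of that list, and the control lists were longer. The part of list length in the rank was not tested. In control replicate 1 a wider peak, chr7:27166532-27169148 with 48 fragments, touched the edge of the widened gene. The vitamin C peaks at that place, with 36 and 31 fragments, lay outside it. HOXA10, needed in the uterus, was covered over 13% and 17.4% with vitamin C and over 30.5% and 27.0% in control. The peak that reaches its start window, whose shared bases are the capitals printed above, held 34 and 22 fragments with vitamin C and 37 and 29 in control.

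HOXA11 and HOXA13 had no vitamin C peak. HOXA11, which with its paralogs is required for the mouse kidney, was covered over 23.9% and 11.2% in control. The region at chr7:27181073-27181306 held 13 and 12 fragments in the control libraries and the region over its start window, chr7:27185039-27185581, held 11 and 10. No vitamin C peak met either region, while the HOXA10 peak that reached the widened HOXA11 in control replicate 1 was met by both vitamin C libraries. HOXA13, a gene of the hand, foot and genital tract, had peaks in control replicate 1 alone, over 5.51% of the gene.

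The HOXB cluster was as densely covered as HOXA up to HOXB9. HOXB1 to HOXB9, chr17:48527526-48627358 with 1 kb on each side, held 26 and 26 peaks with vitamin C and 47 and 42 in control. Peaks covered 12.0% and 8.86% of these 99.8 kb with vitamin C and 30.1% and 23.7% in control. Of the 10 HOXB genes 8 and 9 had a peak with vitamin C and 9 and 8 in control, a difference of 0 (exact permutation p = 1).

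At the anterior end HOXB1, a hindbrain gene, had no peak in any library and lay in a peak-free stretch of 13.6 kb. HOXB2, its neighbour in the hindbrain programme, had the lowest vitamin C coverage relative to control of the 22 genes, with 4.6% and 4.71% with vitamin C and 39.8% and 22.6% in control. HOXB3 had 7 and 8 peaks with vitamin C and 20 and 17 in control, over 6.83% and 4.87% of the gene with vitamin C and 20.8% and 17.8% in control. These values separated the groups at both genes.

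The central HOXB genes were met in all 4 libraries. HOXB4, known for expanding blood stem cells, was covered over 4.34% and 4.34% with vitamin C and over 11.5% and 21.7% in control. Its vitamin C peaks were chr17:48578364-48578573 in replicate 1 and chr17:48574610-48574819 in replicate 2. They lay in the 1 kb on opposite sides of the gene, so they were not a shared site. HOXB5 was covered over 20.3% and 17.5% with vitamin C and over 68.9% and 38.0% in control. The peak at its end toward HOXB6, chr17:48593525-48594003 in control replicate 2, was among the strongest HOX peaks of every list. It ranked above 95.7% and 96.3% of the peaks of the vitamin C lists by fold and above 99.2% and 98.8% of those of the longer control lists. It held 46 and 36 fragments with vitamin C and 52 and 44 in control. HOXB6 was covered over 20.4% and 21.3% with vitamin C and over 59.8% and 43.0% in control, and in control replicate 1 it shared the HOXB5 peak. Control replicate 1 had the highest coverage of the 4 libraries at both genes. HOXB7 was the least different, with 20.2% and 12.0% with vitamin C and 24.4% and 25.5% in control, and 2 peaks in each library. HOXB8 was covered over 29.9% and 28.0% with vitamin C and over 66.4% and 53.1% in control, the highest coverage of the HOXB genes in both vitamin C libraries.

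HOXB9 was the last gene before a long gap. It was covered over 28.3% and 14.8% with vitamin C and over 54.6% and 34.3% in control. Between it and HOXB13, with both genes widened by 1 kb, lie 96.4 kb, which held 0 and 0 peaks with vitamin C and 1 and 0 in control. A stretch of 93.5 kb there, chr17:48627358-48720834, was free of peaks in all 4 libraries. HOXB13, a gene of prostate and tail end, was covered over 0% and 3.51% with vitamin C and over 3.94% and 0% in control, so 1 library of each group met it.

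The HOXC cluster had few peaks and the lowest coverage. It spans chr12:53937831-54057030, and held 4 and 3 peaks with vitamin C and 18 and 12 in control. They covered 1.23% and 0.624% of its 119.2 kb with vitamin C and 5.02% and 4.83% in control. The vitamin C coverage was 18.8% of that in control, a log2 ratio of -2.41, against 41.1% in HOXA, 38.8% in HOXB and 40.9% in HOXD, with log2 ratios of -1.28, -1.36 and -1.29. HOXC gave 4.92% and 2.85% of the covered length of the 4 clusters with vitamin C and 7.68% and 8.54% in control, a difference of -4.23 percentage points, the largest of the 4 cluster shares compared. The groups did not overlap, and the exact two-sided permutation p of 0.333 is the smallest possible. A peak lay at 4 of the 9 HOXC genes in each vitamin C library and at 7 and 5 in control. In lists of equal length that number was 4 in every library.

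HOXC4, HOXC5 and HOXC6 share an annotated start and a single peak beside it, so they were met in all 4 libraries together. The peak, chr12:54017152-54017658 in control replicate 1, held 29 and 18 fragments with vitamin C and 31 and 31 in control. By fold it ranked above 35.9% and 12.9% of the peaks of the vitamin C lists and above 93.6% and 96.4% of those of the control lists. The groups did not overlap in fragment number or in rank, and the part of list length in the rank was not tested. HOXC4, the longest of the set, had 2 and 1 peaks with vitamin C and 10 and 6 in control, over 2.14% and 0.683% of the gene with vitamin C and 7.80% and 7.94% in control. HOXC5 was covered over 1.79% and 1.37% with vitamin C and over 3.75% and 7.97% in control. HOXC6 was covered over 2.30% and 1.76% with vitamin C and over 3.18% and 8.13% in control. Since all 3 genes were called by the same peak, they count as 1 site.

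HOXC9, which sets the fate of thoracic motor neurons in mice, was the other HOXC gene met in all 4 libraries. It was covered over 11.3% and 4.89% with vitamin C and over 15.0% and 18.4% in control. Its peak at chr12:54003406-54003970 in control replicate 1 held, across the libraries, 41 and 28 fragments with vitamin C and 48 and 41 in control. HOXC8, also active in the trunk, was control-only, with coverage of 0% in both vitamin C libraries and of 3.65% and 13.7% in control. Its control peaks did not overlap between the control libraries, so that call did not rest on 1 shared region. HOXC11 and HOXC12 each had 1 peak, in control replicate 1. HOXC10, and HOXC13 of hair and nail, had none in any library. HOXC10 lay in a peak-free stretch of 23.8 kb and HOXC12 and HOXC13 together in one of 21.8 kb, the HOXC12 peak being in the 1 kb beside the gene.

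In the HOXD cluster the peaks gathered at HOXD9 to HOXD11 and few lay toward HOXD1. It spans chr2:176086487-176191907 and held 8 and 10 peaks with vitamin C and 14 and 16 in control. They covered 3.4% and 4.48% of its 105.4 kb with vitamin C and 9.28% and 9.96% in control. A peak lay at 4 of 9 genes in each vitamin C library and at 5 in each control library, and at 4 in every library where the lists had equal length.

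HOXD9, HOXD10 and HOXD11, which pattern the limb, were met in all 4 libraries. HOXD9 was covered over 10.2% and 10.4% with vitamin C and over 32.7% and 28.1% in control. The strongest peak that met it, chr2:176125415-176126513 in control replicate 1, held 27 and 24 fragments with vitamin C and 31 and 27 in control. It reached only the 1 kb beside the gene, and its summit lay outside the widened gene except in control replicate 2. No other vitamin C peak met HOXD9. The control region inside the gene, chr2:176123740-176124594, was met by 0 vitamin C libraries. HOXD10 was covered over 6.16% and 9.26% with vitamin C and over 21.0% and 29.0% in control. HOXD11, which acts with HOXA11 in the mouse kidney, was covered over 7.49% and 7.51% with vitamin C and over 13.7% and 16.6% in control. Each of these genes was lower in both vitamin C libraries.

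The other HOXD genes had few peaks or none. HOXD3 was covered over 1.09% and 0% with vitamin C and over 6.82% and 4.01% in control. HOXD13, a gene of the digits, was covered over 0% and 2.26% with vitamin C and over 4.5% and 2.14% in control, so its groups overlapped. HOXD1, HOXD4, HOXD8 and HOXD12 had no peak in any library. HOXD1 lay in a peak-free stretch of 32.9 kb and HOXD4 in one of 11.2 kb.

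**Figure D3:**
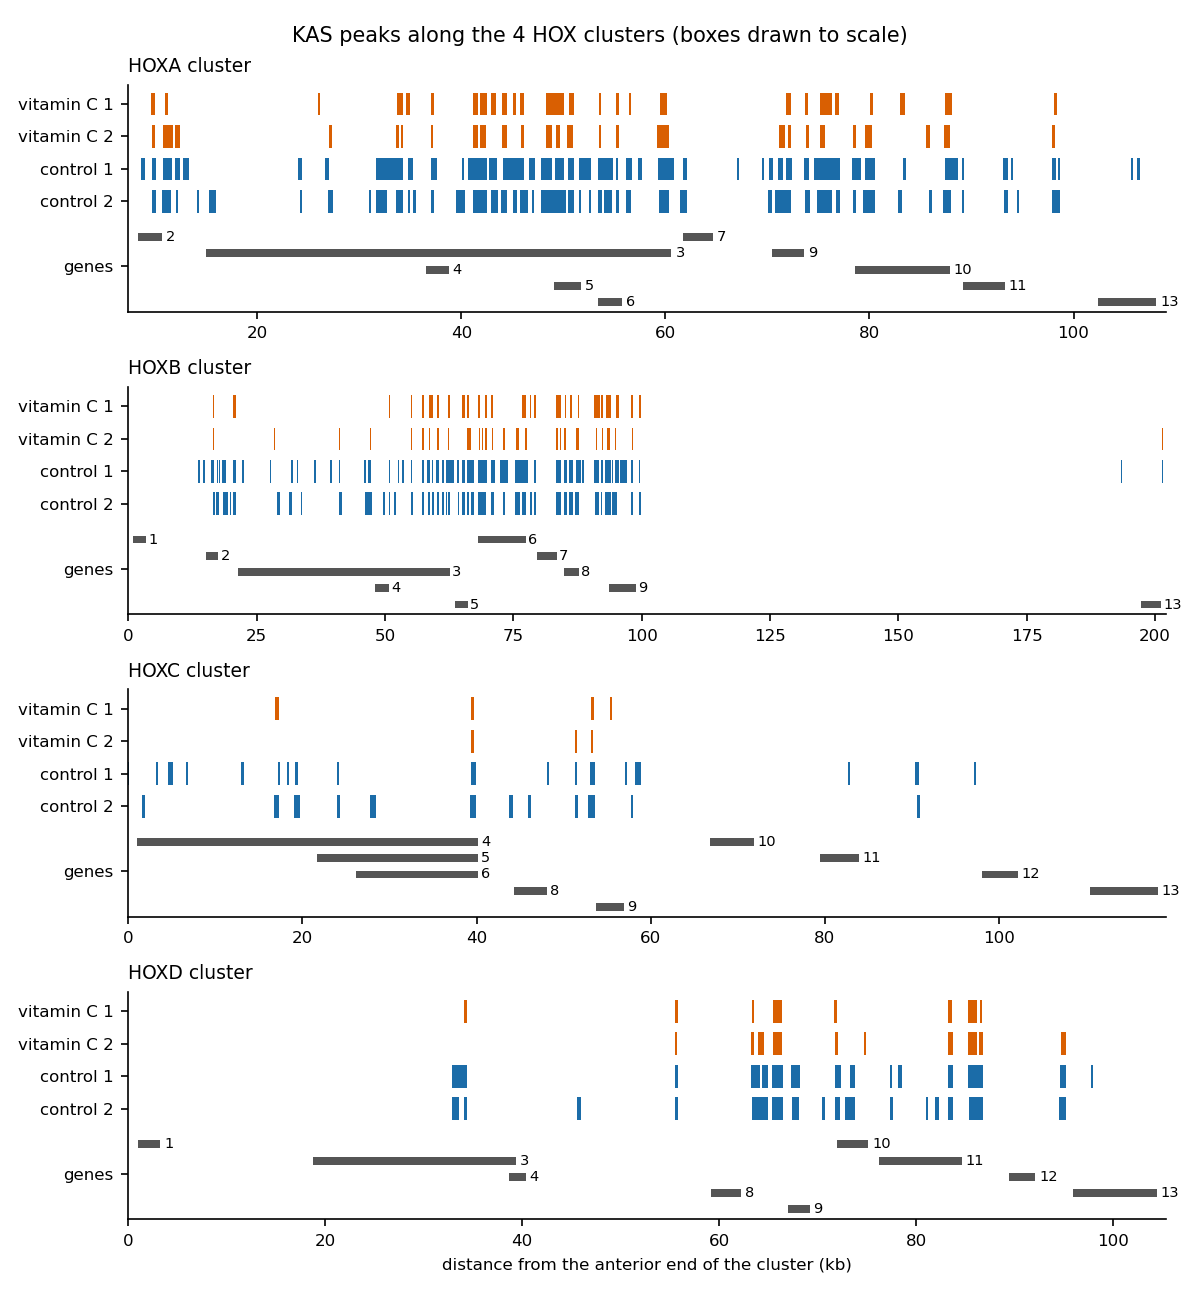
KAS peaks (boxes, to scale) along the 4 HOX clusters in each library, with genes as grey bars labelled by paralog group; the horizontal axis is the distance in kb from the anterior end of the cluster, and HOXA is drawn from HOXA2 on. Vitamin C rows hold fewer boxes than control rows in every cluster, and HOXD boxes gather around genes 9 to 11. Beyond the 1 kb beside HOXB9, the stretch up to the 1 kb beside HOXB13 holds 1 box, in control replicate 1.

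By position along the clusters, the central genes had a peak most often. Of 8 anterior genes (paralog groups 1 to 3), 5 and 4 had a peak with vitamin C and 5 and 6 in control (exact permutation p = 0.667). Of 15 central genes (groups 4 to 8), 11 and 11 had a peak with vitamin C and 13 and 13 in control (exact permutation p = 0.333). Of 16 posterior genes (groups 9 to 13), 7 and 9 had a peak with vitamin C and 13 and 9 in control (exact permutation p = 0.667), so anterior and posterior groups touched or overlapped. The posterior difference of -3 genes was -1 without control replicate 1 and -5 without control replicate 2. At equal list length the anterior difference was 0.5 in the other direction and the central difference was 0. The posterior genes met in no library or in 1 were HOXA13, HOXC10, HOXC11, HOXC12, HOXC13 and HOXD12.

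Part of the HOX genes were among the most widely covered genes of the genome in both groups, while 7 had no peak in any library. Of 39 HOX genes 2 were at or above the 99th percentile of all genes by mean coverage with vitamin C and 5 in control. At or above the 95th percentile there were 15 with vitamin C and 16 in control. The mean coverage of a HOX gene was 7.94% and 7.28% with vitamin C and 20.8% and 17.7% in control, against 1.79% and 1.65% with vitamin C and 4.76% and 3.94% in control over genes in the HOX length range. The median HOX gene was covered over 2.03% with vitamin C and 13.9% in control. The median length was 3785 bp for HOX genes and 13799.5 bp in that range, so 1 peak fills a larger percentage of a typical HOX gene. The part of gene length in the coverage was not tested. Summits of cluster peaks lay inside a HOX gene in 67.7% and 66.7% of cases with vitamin C and 65.6% and 66.4% in control. The share of cluster DNA inside HOX genes was not computed, so these values show no preference for the genes.

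Regions found in both controls were met by vitamin C peaks more often in the clusters than in the genome as a whole. The clusters held 83 such regions of 15177. Both vitamin C libraries met 43 of them, 1 library met 21 and neither met 19. That is 51.8%, 25.3% and 22.9%, against 33.1%, 24.9% and 42% of all regions. The regions of the clusters were also stronger, with a median control strength of 72.3 against 58.8 over all regions, and the part of strength was not tested. By cluster, both vitamin C libraries met 17 of 32 regions in HOXA, 18 of 33 in HOXB, 2 of 7 in HOXC and 6 of 11 in HOXD. The 2 HOXC regions were the peaks beside the shared start of HOXC4 to HOXC6 and beside HOXC9.

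**Figure D4:**
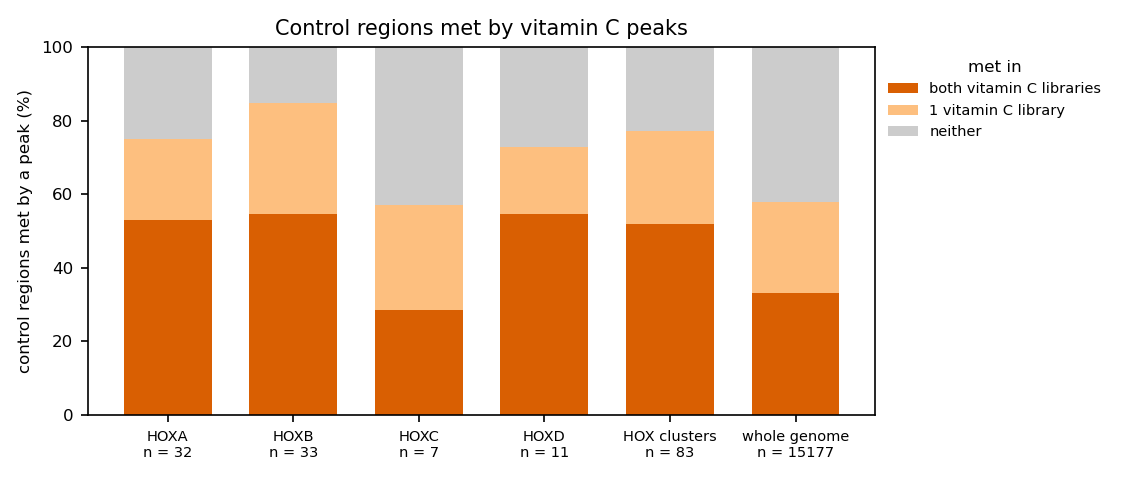
Percentage of regions found in both control libraries that were met by a peak in both, 1 or neither vitamin C library (stacked bars adding up to 100%), for each HOX cluster, all clusters together and the whole genome, with the number of regions under each bar. The darkest part reaches 53.1% in HOXA, 54.5% in HOXB and 54.5% in HOXD, and 28.6% in HOXC, which has 7 regions.

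The lncRNA genes of the clusters had a peak more often than lncRNA genes in general. KAS-seq has no strand, so a peak where a HOX gene and an antisense gene overlap cannot be given to either. Of 25 lncRNA genes in the clusters, 12 and 12 had a peak with vitamin C and 15 and 15 in control, a difference of -3 (exact permutation p = 0.333). Over all lncRNA genes the shares were 4.72% and 4.74% with vitamin C and 10.4% and 9.13% in control. A peak in all 4 libraries was found at 11: HOXA-AS2, HOXA-AS3, HOXA10-AS, HOXA11-AS, HOXB-AS1, HOXBLINC, HOXB-AS3, HOXD-AS2, LOC124902939, LOC100129455 and LOC401021. Over all lncRNA genes 3.51% had one in all 4. LOC401021 was called by the same peak as HOXD-AS2 in each library, and no peak lay on LOC401021 itself. LOC124902939 was called by the peak beside the shared start of HOXC4 to HOXC6. The 11 genes are therefore not 11 separate sites.

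HOXA10-AS, HOXB-AS3 and HOXA-AS3 had the widest mean coverage of these lncRNA genes in both groups. HOXA10-AS, across HOXA10, was covered over 21.2% and 20.1% with vitamin C and over 62.3% and 46.6% in control. HOXB-AS3, across HOXB5 and HOXB6, was covered over 21.9% and 19.1% with vitamin C and over 61.3% and 43.2% in control. HOXA-AS3, across HOXA5 to HOXA7, was covered over 21.0% and 19.2% with vitamin C and over 47.5% and 39.0% in control. All 3 were lower in both vitamin C libraries. HOXA11-AS, widened by 1 kb, was covered over 3.24% and 4.21% with vitamin C and over 19.2% and 19.3% in control. On the gene itself lay 0 and 0 peaks with vitamin C and 2 and 2 in control, so its vitamin C peaks were in the 1 kb beside it.

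HOTAIR and HOXC-AS1, both in the HOXC cluster, were control-only, as were 2.46% of all lncRNA genes. HOTAIR, an RNA known for its link to polycomb, was covered over 4.8% and 2.1% in control. HOXC-AS1 was covered over 28.7% and 9.0% in control. HOTAIRM1 and HOXB-AS2 were met by 1 vitamin C library each. HOTAIRM1, known from myeloid cells, was covered over 3.3% and 0% with vitamin C and over 11.9% and 11.2% in control. HOXB-AS2 was covered over 0% and 3.2% with vitamin C and over 13% and 17.6% in control. The remaining 10, HOTTIP and HAGLR among them, had no peak in any library.

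The clusters also hold 8 miRNA genes, several of whose products are known to target HOX messages. MIR196B, between HOXA9 and HOXA10, had 1 and 1 peaks within 1 kb with vitamin C and 2 and 2 in control, while no peak lay on the hairpin itself. MIR10A in HOXB had 0 and 0 peaks within 1 kb with vitamin C and 2 and 1 in control. MIR615 in HOXC had 0 and 0 with vitamin C and 1 and 1 in control. Both of these were control-only. Over all miRNA genes the shares with a peak were 4.45% and 4.66% with vitamin C and 10.6% and 8.84% in control. MIR196A1, MIR196A2, MIR10B, MIR3185 and MIR7704 had none in any library. Of all miRNA genes 3.35% had a peak nearby in all 4 libraries and 2.25% were control-only. The mature RNAs of miR-196a and miR-196b are shown because their genes lie at matching places in 3 clusters and differed in their peaks, and miR-10a and miR-615 because their peaks were in control alone. They are from RefSeq, 5′ to 3′, with the seed (bases 2 to 8) in capitals.
hsa-miR-196b-5p: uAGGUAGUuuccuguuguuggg
hsa-miR-196a-5p: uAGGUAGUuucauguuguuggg
hsa-miR-10a-5p: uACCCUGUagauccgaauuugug
hsa-miR-615-3p: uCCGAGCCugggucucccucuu

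The miR-196a and miR-196b RNAs share the seed AGGUAGU. The gene of miR-196b was near a peak in all 4 libraries, and neither gene of miR-196a, MIR196A1 in HOXB nor MIR196A2 in HOXC, was near a peak in any.

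Genes around the clusters and genes that act with HOX proteins were examined by the same rule. EVX1 and EVX2, homeobox genes that lie 42.7 kb from HOXA and 3.52 kb from HOXD, had no peak in any library. Of the 24 protein-coding genes nearest the clusters, 13 had a peak in both controls, 8 of them in all 4 libraries and 1 in control alone. The strongest in all 4 were HNRNPA1 and CBX5, which lie side by side and shared their strongest control peak, with 59 and 54 fragments. HNRNPA1, an RNA-binding protein gene, was covered over 97.0% with vitamin C and 100% in control on average. CBX5, which encodes heterochromatin protein 1 alpha, was covered over 5.88% with vitamin C and 12.7% in control on average. The control-only gene was ATF7, a transcription factor. Of 8 ParaHox and EVX genes, 7 had no peak, and CDX2, which regulates HOX genes, was control-only. Of all 19974 protein-coding genes, 7047 had a peak in both controls and 10488 had none in any library.

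Of 9 cofactor genes of the PBX, MEIS and PKNOX families, 6 had a peak in both controls, 3 of them in all 4 libraries and none in control alone. MEIS1 held 28 and 20 fragments at its strongest peak with vitamin C and 28 and 32 in control, and PKNOX2 held 44 and 24 with vitamin C and 41 and 32 in control. Of 27 polycomb genes, 19 had a peak in both controls, 10 in all 4 libraries and 4 in control alone. CBX6 was covered over 14.7% with vitamin C and 38.0% in control on average, and EED, a core subunit of the complex that methylates histone H3, over 2.13% with vitamin C and 5.52% in control, while PHF1 and PHC2 were control-only. Of 14 MLL and trithorax genes, all 14 had a peak in both controls, 6 in all 4 libraries and 4 in control alone. MLLT1 and RBBP5 were met in all 4, and MLLT3 and MEN1, which encodes menin, in control alone. These counts can be set against the 7047 of all 19974 genes that had a peak in both controls. Of those 7047 genes, 49.7% were met in all 4 libraries and 26.8% were control-only.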

How the data were processed

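KAS-seq was analysed in 4 labelled HEK293T libraries, 2 with vitamin C and 2 control. The 4 input libraries of the 8 samples were not analysed here. Groups follow the sample titles. The cell line field varies in its number between samples, and the titles name HEK293T throughout.

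Per the submitters' processing notes, the build was hg38 and the tools were MACS2 2.2.7.1, Bowtie2 2.4.5, deepTools, bcl2fastq 2.19, cutadapt and Trim Galore. The sources used here give neither order nor settings. Each deposited peak list gives positions and summits, the authors' fold enrichment (a ratio over background that belongs to the peak and was used only within its list), the authors' −log10 p and −log10 q, and a display score that was not used. The highest deposited q-value was 0.00999. Peaks off chromosomes 1 to 22 and X, 4.23% to 5.06% of a list, were left out.

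Library read totals are not in these lists. The fragments at each summit and the background were solved from fold and p as MACS2 computes them, to 0.005 in −log10 p, for 100% of peaks. This needed a scale of 0.776 in vitamin C replicate 1. The lowest background shared by at least 1% of peaks was taken as the genome-wide level.

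A gene of the RefSeq table of GRCh38.p14 had a peak where at least 1 bp lay in the gene widened by 1 kb. Regions found in both controls were merged control peaks that overlap a peak of each control library. An exact two-sided permutation test compared the library values of the groups. All HOX genes entered the counts, with values given for those met in at least 2 libraries, and 1 gene is not reported here by itself. Of other lists, up to 2 genes met in all 4 libraries and 2 control-only genes of highest control strength were named. The members, lists and tests were chosen with earlier results of these data known. Presence calls were tested on simulated lists, called over 19974 genes, where 100% of 200 genes planted as control-only were recovered. Each planted peak lay inside the widened span of a gene without close neighbours. The test therefore checked the counting and not calls at genes that share peaks, as HOX genes do. Replicate numbers gave r = 0.053 across 19974 genes between the replicate differences of the groups, over 2 pairs, so they were not taken to pair libraries. Python 3.11.15, numpy 2.4.6, pandas 2.3.3 and scipy 1.17.1 were used.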

Additional observations from a re-analysis of the deposited data

How the results depend on the processing

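The differences in HOX genes with a peak, HOX covered length, HOXA genes, posterior genes and cluster lncRNA genes kept their sign under all 11 alternatives, and no alternative could bring an exact p below 0.333. Lists of equal length removed most differences in number, as their construction does for peak numbers in general. The difference in different HOX peaks became 3.5 and that in anterior genes 0.5, both opposite to the values above, and the differences in HOXC, HOXD and central genes became 0. The difference in HOXB genes, 0 above, was 0.5 in lists of equal length, -0.5 at −log10 q of at least 5, -2 at a fold of at least 6.16 and -0.5 for genes not widened. The number of control-only HOX genes, 3 above, was 6 at that fold, 0 in lists of equal length and 1 for genes widened by 2 kb, and the cause was not tested. Fits without 1 of the 4 libraries gave -7.5 to -4.5 HOX genes, -53 to -45 peaks, log2 covered length ratios of -1.51 to -1.28, -0.5 to 0.5 HOXB genes, -3 to -1 HOXC genes, -5 to -1 posterior genes and 4 to 6 control-only genes, with 6 without control replicate 2. With the replicate number as a block, the differences were -6 HOX genes and -49 peaks and the log2 ratio of HOX coverage was -1.39, and no call changed. A peak missing from a list may have lain under the authors' threshold, so its absence is not a measured 0.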
